A study of Mus musculus with 19 samples.

Results

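The 6 mouse Lce3 genes, Lce3a, Lce3b, Lce3c, Lce3d, Lce3e and Lce3f, were followed in bulk RNA sequencing of whole tongue epithelium from 19 mice. They were chosen by name, all 6 were among the 24689 gene symbols of the deposited table, and all 6 passed the filter on low values. The study switched on human papillomavirus oncogenes, an active YAP1, or both together in the tongue epithelium and took the tissue on day 15 after induction. The values are TPM, transcript abundances corrected for transcript length and scaled to the same total in each mouse. This scale is meant to let levels be compared between genes, though the lengths used are not stated.

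Induced mice shared the alleles Krt14-CreERT and LSL-rtTA, and induction was tamoxifen given into the tongue with doxycycline chow. E mice (5) also carried tetON_E6-E7, the HPV16 oncogenes, Y mice (3) carried tetON_YAP1S127A, and EY mice (6) carried both transgenes. The 5 N mice were the controls. N mice 1 to 3 had Krt14-CreERT and LSL-rtTA, N mouse 4 had LSL-rtTA without a Cre, and N mouse 5 had Krt14-CreERT with both transgenes but no rtTA. The study's methods add a tetON_H2B-GFP reporter to the genotype of each group, N included. Mice were littermates of 8 to 16 weeks, balanced for age and sex, and the RNA was selected by poly-A. The Krt14 promoter limits recombination to basal keratinocytes, whereas Lce genes are used in the upper layers, and the samples hold both. Whole reads recovered from the TPM steps came to 8269674 to 11007304 per mouse. The 6 Lce3 genes together had 3610 reads in EY mouse 2, the fewest, and 40429 in E mouse 5, the most.

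Late cornified envelope (LCE) proteins are small proteins that transglutaminases cross-link into the cornified envelope, the tough shell that replaces the membrane of a dying keratinocyte at the surface. Their genes lie together in the epidermal differentiation complex. In human skin LCE1 and LCE2 genes belong to normal cornification, whereas LCE3 genes are low in healthy skin and are induced when the barrier is injured and in psoriasis, and a common deletion of LCE3B and LCE3C is linked with psoriasis risk. In N mice the Lce3 genes were among the most abundant transcripts, with median ranks from 50 for Lce3a and Lce3c to 201 for Lce3d among 24689 genes. No group is described as free of the injection into the tongue, so the level in untouched tissue is not known. No injured tissue is compared with uninjured tissue, so an injury label could not be checked, and they are called Lce3 genes here.

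The promoters are shown because 5 of the 6 genes fell together in EY mice and 1, Lce3d, did not pass the test. All 6 were found among 32851 RefSeq mouse promoters of 300 bases, from 250 before to 50 after the start of transcription, on build GRCm38.p6. Printed are Lce3a, whose promoter is least like the rest and whose level was highest, Lce3c, Lce3d and Lce3e, whose promoter is the closest to that of Lce3d. They lie at chr3:92926181-92926480 on the minus strand for Lce3a, and on the plus strand at chr3:92944236-92944535 for Lce3c, chr3:92957140-92957439 for Lce3d and chr3:92966811-92967110 for Lce3e. Capitals mark the longest runs of bases that all 6, any 5 and any 4 of the promoters share.
Lce3a: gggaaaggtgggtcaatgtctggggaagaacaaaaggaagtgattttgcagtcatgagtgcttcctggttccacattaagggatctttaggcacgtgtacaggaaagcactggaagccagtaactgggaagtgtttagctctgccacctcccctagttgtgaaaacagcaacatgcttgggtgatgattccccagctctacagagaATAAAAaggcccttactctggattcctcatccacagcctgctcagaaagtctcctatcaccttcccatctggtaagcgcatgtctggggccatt
Lce3c: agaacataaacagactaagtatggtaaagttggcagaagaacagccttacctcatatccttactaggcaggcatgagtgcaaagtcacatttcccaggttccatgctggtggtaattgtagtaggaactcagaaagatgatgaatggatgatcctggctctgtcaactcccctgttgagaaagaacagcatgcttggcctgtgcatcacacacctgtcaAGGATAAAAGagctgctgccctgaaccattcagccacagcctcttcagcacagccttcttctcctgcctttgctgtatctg
Lce3d: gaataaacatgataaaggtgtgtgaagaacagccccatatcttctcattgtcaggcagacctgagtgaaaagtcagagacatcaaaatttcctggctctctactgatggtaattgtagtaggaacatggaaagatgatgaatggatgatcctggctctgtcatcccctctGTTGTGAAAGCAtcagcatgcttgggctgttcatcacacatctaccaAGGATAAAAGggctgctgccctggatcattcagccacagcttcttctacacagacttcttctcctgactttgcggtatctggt
Lce3e: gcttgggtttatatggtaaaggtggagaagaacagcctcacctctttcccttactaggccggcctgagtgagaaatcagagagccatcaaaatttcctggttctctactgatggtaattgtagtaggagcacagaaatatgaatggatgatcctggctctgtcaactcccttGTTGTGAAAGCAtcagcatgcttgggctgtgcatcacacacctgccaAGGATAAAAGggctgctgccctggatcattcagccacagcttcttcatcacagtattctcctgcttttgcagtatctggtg

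Both strands were searched. The longest run in all 6 promoters was ATAAAA, which began 44 bases before the start in Lce3a and 28 to 30 bases before it in the other 5, with a further copy 207 bases before the start in Lce3f. It occurs in 18.5% of all promoters. The longer run AGGATAAAAG, which contains ATAAAA, was in every member except Lce3a, 31 to 33 bases before the start, and in 0.0944% of promoters, 31 in number. GTTGTGAAAGCA lay 76 to 80 bases before the start in Lce3b, Lce3d, Lce3e and Lce3f, and in no other promoter of the 32851. These runs were picked because members share them, so their presence in the members was fixed in advance. Only exact matches were counted. The AP-1 motif TGANTCA, held by 7.81% of promoters, and the TEAD motif CATTCC, held by 14.7%, were in 0 of the 6 windows. A match is a description of letters, and the lack of one says only that these letters are not in this window. Promoter identity between pairs of members ran from 56.4% to 83.8% with a median of 59.5%, highest for Lce3d with Lce3e, then 79.0% for Lce3c with Lce3e and 77.2% for Lce3c with Lce3d. The fall of Lce3e in EY mice passed the test and that of Lce3d did not. Whether their fold changes differ, and whether promoter sequence bears on them, was not tested.

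The coding sequences were far more alike than the promoters. Each gene has 2 exons and 297 coding bases, and identity between pairs ran from 94.3% to 99.3% with a median of 97.6%. Lce3d and Lce3f were the closest at 99.3%. Of the stretches of 100 bases in each transcript, 0% in Lce3a and 1.08% in Lce3b occur in another member, against 24.1% in Lce3c, 28.3% in Lce3d, 36.4% in Lce3e and 43.0% in Lce3f. In stretches of 50 bases the shares are 19% in Lce3a and 12.1% in Lce3b, against 35.7% in Lce3c, 49.3% in Lce3d, 43.7% in Lce3e and 48.0% in Lce3f. No stretch of either length is shared with a gene outside the family. How reads that fit more than 1 member were counted is not stated. The levels of Lce3c to Lce3f may thus be less separate from each other than those of Lce3a and Lce3b.

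Lce3a was the most abundant member. It measured 3671, 2042, 3091, 2917 and 4348 TPM in N mice 1 to 5, and 5083, 6237, 6857, 5328 and 6023 TPM in E mice 1 to 5. In Y mice 1 to 3 it was 3114, 4050.1 and 2542 TPM, and in the 6 EY mice it had a lowest value of 358, a median of 1272 and a highest of 1409 TPM. Every EY mouse lay below every mouse of the other groups, and every E mouse lay above every N and Y mouse. Y mice fell within the range of N mice.

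Lce3c had nearly the same level in N mice, at 3023, 1961, 2983, 3199 and 3599 TPM in mice 1 to 5. E mice 1 to 5 had 3653, 4501, 4668, 3184 and 4674 TPM, Y mice 1 to 3 had 3272, 2491 and 1693 TPM, and EY mice had 472 TPM at the lowest, 819.6 at the median and 1271 at the highest. Every EY mouse was again below every other mouse, while N, E and Y overlapped. Lce3b and Lce3e had the same separation of EY mice. Lce3b ran from 1477 to 2758 TPM among N, 2530.3 to 3748 among E, 1656 to 2764.5 among Y and 339 to 1071 among EY mice, and Lce3e from 646 to 2635, 1054 to 2551, 931 to 2469 and 204 to 558 TPM.

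Lce3f and Lce3d varied more among control mice. Lce3f measured 2810.3, 810.0, 838, 2337 and 3426 TPM in N mice 1 to 5 and 3374, 3002, 2848, 2162 and 4591 TPM in E mice 1 to 5. Y mice 1 to 3 had 2535, 2524 and 1117 TPM, and EY mice had 231, 615 and 919 TPM at the lowest, median and highest. EY mice were below all E and Y mice, but N mice 2 and 3 lay below the highest EY mouse. Lce3d, the least abundant, measured 823, 194, 255, 807 and 734 TPM in N mice 1 to 5, and 567, 731, 874, 303 and 924 TPM in E mice 1 to 5. In Y mice 1 to 3 it was 1792, 989 and 459 TPM, and in EY mice 168, 295 and 516 TPM at the lowest, median and highest. The EY range overlapped those of all 3 other groups, and Y mouse 1 was the highest of the 19 mice.

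The same mice were low for gene after gene. N mouse 2 was the lowest N mouse, EY mouse 2 the lowest EY mouse and Y mouse 3 the lowest Y mouse for all 6 genes, and E mouse 4 was the lowest E mouse for the 5 genes other than Lce3a. On the log2 scale the SD among N mice was 0.41 for Lce3a, 0.36 for Lce3b and 0.33 for Lce3c, against 1.01 for Lce3d, 0.85 for Lce3e and 0.99 for Lce3f.

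**Figure D1:**
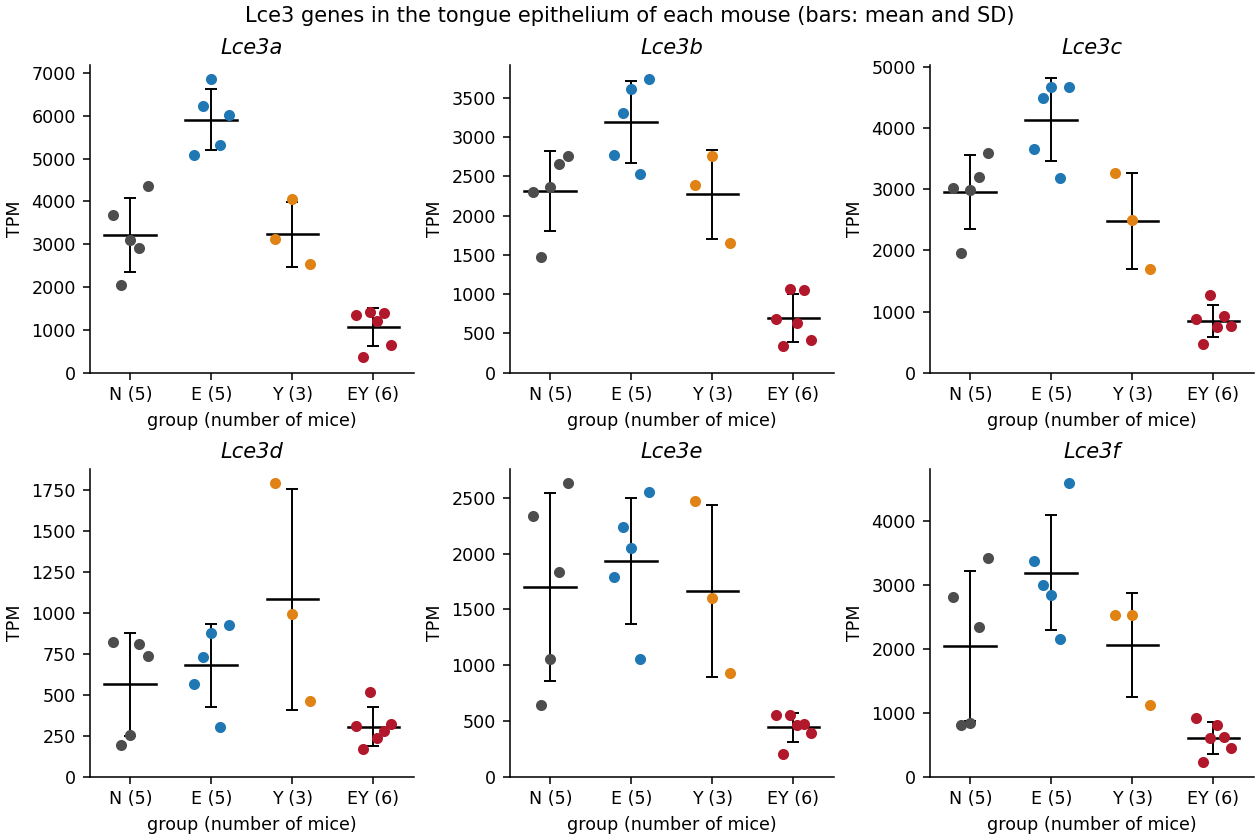
TPM of each Lce3 gene (1 panel a gene, linear axis from 0) in N, E, Y and EY mice; dots are mice, the line is the group mean and bars are the SD. EY mice lie below every other mouse for Lce3a, Lce3b, Lce3c and Lce3e, and overlap N mice for Lce3d and Lce3f.

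By group means the order of levels was Lce3a, Lce3c, Lce3b, Lce3f, Lce3e and Lce3d in each of the 4 groups. In N mice the means ± SD (n = 5) were 3214 ± 862 TPM for Lce3a, 2953 ± 606 for Lce3c, 2313 ± 505 for Lce3b, 2044 ± 1179 for Lce3f, 1702 ± 839 for Lce3e and 563 ± 311 for Lce3d. Neighbours in this order differed by less than the SD of either, except Lce3c over Lce3b, whose ranges still overlapped, and Lce3e over Lce3d. These SDs are between mice, while all members were measured in the same mice. Within N mice the log2 ratio of Lce3b to Lce3c ran from -0.41 to -0.26, so Lce3c was above Lce3b in each. That of Lce3a to Lce3c ran from -0.13 to 0.28. Lce3d was the lowest of the 6 in 19 of 19 mice. Lce3a was the highest in 15 mice and Lce3c in the other 4. Stretches of 50 bases shared with another member made up 12.1% to 35.7% of Lce3a, Lce3b and Lce3c. They made up 43.7% to 49.3% of Lce3d, Lce3e and Lce3f. Whether the counting of shared reads bears on the order of levels was not tested. In EY mice (n = 6) the means were 1058 ± 443 TPM for Lce3a, 843 ± 263 for Lce3c, 699.7 ± 308 for Lce3b, 606 ± 247 for Lce3f, 442 ± 131 for Lce3e and 305 ± 118 for Lce3d. Even there the genes stayed abundant, with median ranks from 127.5 for Lce3a to 371.5 for Lce3d.

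Together the 6 genes made up 1.28% ± 0.402 of all TPM in N mice (SD, n = 5), 1.91% ± 0.315 in E mice (n = 5), 1.28% ± 0.386 in Y mice (n = 3) and 0.395% ± 0.134 in EY mice (n = 6). Summed Lce3 TPM ran from 7131 to 17500.1 among N, 14562 to 22509.8 among E, 8398 to 15579.6 among Y and 1772 to 5431 among EY mice. The EY range lay wholly below the others. In bulk RNA, fewer cells that make these transcripts and less transcript per cell cannot be told apart.

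The comparison of EY with N mice asks what both transgenes together did to the Lce3 genes. A gene passed the limma test at an adjusted p under 0.01, adjusted over the 22745 genes tested, with a log2 fold change beyond 1 in either direction. Of the 6 genes 5 passed as lower, against 5.71% of all genes passing as lower, and 4 of 6 had groups that did not overlap, against 27.4% of all genes. The median log2 fold change of the 6 was -1.77, while that of all genes was 0.33. Lce3c fell by 1.84 (SE 0.23, adjusted p = 5.07e-06), which is 3.58-fold lower, with all 6 EY mice below all 5 N mice. Lce3b fell by 1.82 (SE 0.28, adjusted p = 3.88e-05), Lce3e by 1.84 (SE 0.37, adjusted p = 0.000653) and Lce3a by 1.71 (SE 0.31, adjusted p = 0.000239), each with all 6 EY mice below all N mice. Lce3f fell by 1.64 (SE 0.42, adjusted p = 0.0044).

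The fall of Lce3f was the least certain of the 5. It no longer passed without N mouse 1 (adjusted p = 0.0146), N mouse 4 (0.0138), N mouse 5 (0.0163), EY mouse 2 (0.0106) or EY mouse 6 (0.0101), nor when only N and EY mice were in the fit (0.0171), and Lce3f then stayed below 0 at -1.64 to -1.38. With only the 3 N mice that carry both Krt14-CreERT and LSL-rtTA, 3 of the 6 genes passed, Lce3e being at -1.47 with an adjusted p of 0.0131 and Lce3f at -1.16 with 0.0653. When each mouse was scaled by the median of ratios, which moves the all-gene median from 0.33 to 0.01, the 5 genes ran from -2.22 for Lce3c and Lce3e to -2.01 for Lce3f, and 5 passed under that scaling, under quantile normalization and by voom on recovered reads. All 6 genes were below 0 in every one of these fits and without any single mouse.

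Lce3d is the member that did not pass in EY against N mice. Its log2 fold change was -0.72 (SE 0.45, adjusted p = 0.216), and -1.10 with an adjusted p of 0.0838 under median-of-ratios scaling. With only the 3 N mice that carry both alleles Lce3d was at -0.26 (adjusted p = 0.742). Leaving out 1 of all 19 mice gave -1.04 without N mouse 2 to -0.52 without N mouse 1 for Lce3d. A p that misses the threshold does not show that Lce3d was unchanged, and whether its fold change differs from those of the other members was not tested.

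The comparison of Y with N mice asks what active YAP1 alone did. By limma 0 of the 6 genes passed in either direction, against 4.58% of all genes, 0 were under an unadjusted p of 0.05, against 28.9% of all genes, and voom called 0. The log2 fold changes were 0.03 for Lce3a, -0.02 for Lce3b, -0.27 for Lce3c, 0.04 for Lce3e and 0.16 for Lce3f, and adjusted p ran from 0.253 to 0.977. The sign of these values near 0 changed with the scaling for Lce3a, Lce3e and Lce3f. Lce3d had the highest value, 0.98 (SE 0.54, adjusted p = 0.253), with Y mice 1 and 2 above every N mouse and Y mouse 3 below 3 of them. Lce3d came to 0.51 without Y mouse 1 and 1.49 without Y mouse 3, and Lce3c to -0.50 without Y mouse 1 and -0.021 without Y mouse 3. With only the 3 N mice Lce3d came to 1.44, Lce3f to 0.64 and Lce3e to 0.40. EY and Y mice were both compared with the same 5 N mice.

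The comparison of E with N mice asks what the viral oncogenes alone did. All 6 log2 fold changes were above 0 in it, 0.91 for Lce3a (SE 0.33), 0.85 for Lce3f, 0.50 for Lce3c, 0.48 for Lce3b, 0.41 for Lce3d and 0.30 for Lce3e. By limma 0 of the 6 passed, against 1.2% of all genes. Lce3a alone (adjusted p = 0.161) was under an unadjusted p of 0.05 by limma, 1 of 6 against 14.8% of all genes, and voom called 0. Lce3a was also the 1 gene of 6 whose groups did not overlap, against 4.57% of all genes. There were 3 such genes without E mouse 4 and with only the 3 N mice that carry both alleles, and 0 under median-of-ratios scaling. The values were above 0 under each scaling. Without N mouse 2 Lce3e came to -0.0016 and Lce3d to 0.092, and without E mouse 4 Lce3e came to 0.51 and Lce3d to 0.68. With only the 3 N mice Lce3d was at 0.88, Lce3f at 1.32 and Lce3e at 0.67.

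Whether adding the oncogenes to active YAP1 changed the Lce3 genes is asked by EY against Y mice. Log2 fold changes ran from -1.88 for Lce3e to -1.57 for Lce3c, with Lce3d at -1.70 (SE 0.52, adjusted p = 0.0526), and were below 0 under each scaling. Of the 6 genes 3 passed as lower, against 0.928% of all genes, and 5 of 6 had groups that did not overlap, against 14.5% of all genes. Lce3a fell by 1.74 (SE 0.36, adjusted p = 0.0067), Lce3b by 1.79 (SE 0.32, adjusted p = 0.00247) and Lce3c by 1.57 (SE 0.27, adjusted p = 0.00184), in each with all 6 EY mice below all 3 Y mice. These calls rest on few Y mice. Without Y mouse 1 no gene passed, the adjusted p being 0.0329 for Lce3a, 0.0183 for Lce3b and 0.0193 for Lce3c, and without Y mouse 2 none passed, with 0.0413, 0.0189 and 0.0111. Lce3a also missed the threshold without Y mouse 3 (0.0166), EY mouse 4 (0.0101) or EY mouse 6 (0.0132), and Lce3e passed without N mouse 2 (0.0062). With only the 3 N mice that carry both alleles Lce3a missed it at 0.0105 and with the mouse number as a block at 0.0192, while Lce3e passed with a filter at 1 TPM (0.00982) and by voom (0.00368). The labels do not describe the mouse number as a pairing. All 6 were under an unadjusted p of 0.05, against 23.9% of all genes, voom called 4, and with only Y and EY mice in the fit 0 passed, the adjusted p then being 0.0608 for Lce3a, 0.0348 for Lce3b and 0.0251 for Lce3c.

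EY against E mice asks what active YAP1 added to the oncogenes, and it gave the largest falls of the comparisons between groups for every member but Lce3d. Of the 6 genes 5 passed as lower, against 4.99% of all genes, and 5 of 6 had groups that did not overlap, against 24.2%. The log2 fold changes were -2.63 for Lce3a, -2.48 for Lce3f, -2.34 for Lce3c, -2.30 for Lce3b and -2.14 for Lce3e, with adjusted p from 6.86e-07 to 0.000215 and all 6 EY mice below all 5 E mice. Lce3d was at -1.14 (adjusted p = 0.058). The count was 5 without any single mouse too.

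Y against E mice, the groups with 1 transgene each, gave no gene past the test by limma, 0 of 6 against 2.48% of all genes. Lce3a and Lce3c were under an unadjusted p of 0.05, 2 of 6 against 23.3% of all genes, and voom called 0. The log2 fold changes were -0.89 for Lce3a, -0.77 for Lce3c, -0.69 for Lce3f, -0.51 for Lce3b, -0.27 for Lce3e and 0.56 for Lce3d. Without Y mouse 1 Lce3d came to 0.091 and Lce3e to -0.60, and without Y mouse 3 Lce3d came to 1.07, Lce3e to 0.098, Lce3f to -0.29 and Lce3b to -0.30. Only Lce3a had groups that did not overlap, 1 of 6 against 17.6% of all genes, and there were 4 such genes without E mouse 4 and 2 without Y mouse 1, Y mouse 2 or Y mouse 3.

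Whether active YAP1 acted differently with and without the oncogenes is the interaction, EY minus E minus Y plus N. It was -2.66 for Lce3a (SE 0.49, adjusted p = 0.0161), -2.28 for Lce3b (SE 0.43, adjusted p = 0.0187) and -2.07 for Lce3c (SE 0.36, adjusted p = 0.0109). For Lce3f it was -2.64 (adjusted p = 0.0723), for Lce3e -2.18 (0.09) and for Lce3d -2.11 (0.179). By limma 0 of 6 passed, against 0.176% of all genes, 6 of 6 were under an unadjusted p of 0.05, against 13.5% of all genes, and voom called 3. So 3 genes lay just above the limit of 0.01, and single mice moved them across it. Without Y mouse 3 Lce3c passed (0.00947), without EY mouse 2 Lce3a passed (0.00393), and without EY mouse 3 Lce3a (0.00977), Lce3b (0.00689) and Lce3c (0.0044) passed.

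**Figure D2:**
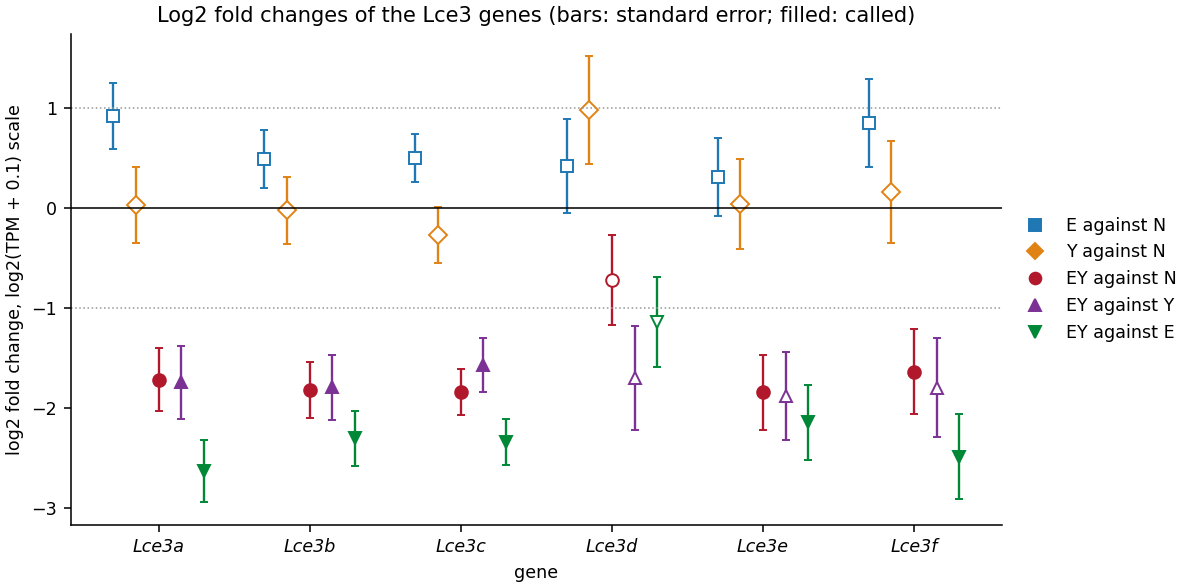
Log2 fold change of each Lce3 gene in 5 comparisons, with bars of 1 SE; filled points passed the test and dotted lines mark a log2 fold change of 1 in either direction. In EY against N mice 5 of 6 genes passed between -1.84 and -1.64, with Lce3d at -0.72, and in Y against N and E against N none passed.

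The 6 genes rose and fell together across mice. Over the 19 mice Pearson's r of log2 TPM for the 15 pairs ran from 0.65 to 0.98 with a median of 0.91, and Spearman's rho from 0.64 to 0.95 with a median of 0.88. These points share the group differences, the library of each mouse and, for some pairs, reads that fit both genes. With the group means taken off, r ran from 0.53 to 0.92 with a median of 0.79 and rho from 0.46 to 0.88 with a median of 0.70. The closest pairs by these deviations were Lce3d with Lce3e and Lce3e with Lce3f, each with r of 0.92 and rho of 0.88, followed by Lce3a with Lce3b (r 0.89, rho 0.82) and Lce3b with Lce3c (r 0.87, rho 0.88). These 4 pairs are of genes next to each other in genome order, leaving out genes not listed in the table, but Lce3c with Lce3e, which are not neighbours, came next (r 0.87, rho 0.86), ahead of the neighbours Lce3c and Lce3d (r 0.84, rho 0.84). Lce3a with Lce3d was the loosest pair (r 0.53, rho 0.46).

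The share of Lce3d in the family total is given as a description. Lce3d held 2.40% to 5.86% of summed Lce3 TPM in N mice and 2.08% to 4.18% in E mice, against 5.47% to 11.5% in Y mice and 5.76% to 10.7% in EY mice. The log2 ratio of Lce3d to Lce3c, which needs no scaling between mice, ran from -3.55 to -1.88 among N, -3.39 to -2.34 among E, -1.88 to -0.87 among Y and -1.74 to -1.26 among EY mice. All EY mice were above all N and E mice, while the lowest Y mouse lay just below the highest N mouse. This ratio was chosen after the values were seen and was not tested. The mean share of Lce3d was 4.14% in N and 3.46% in E mice, against 7.94% in Y and 7.99% in EY mice, the Y and EY ranges each overlapping that of N mice.

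**Figure D3:**
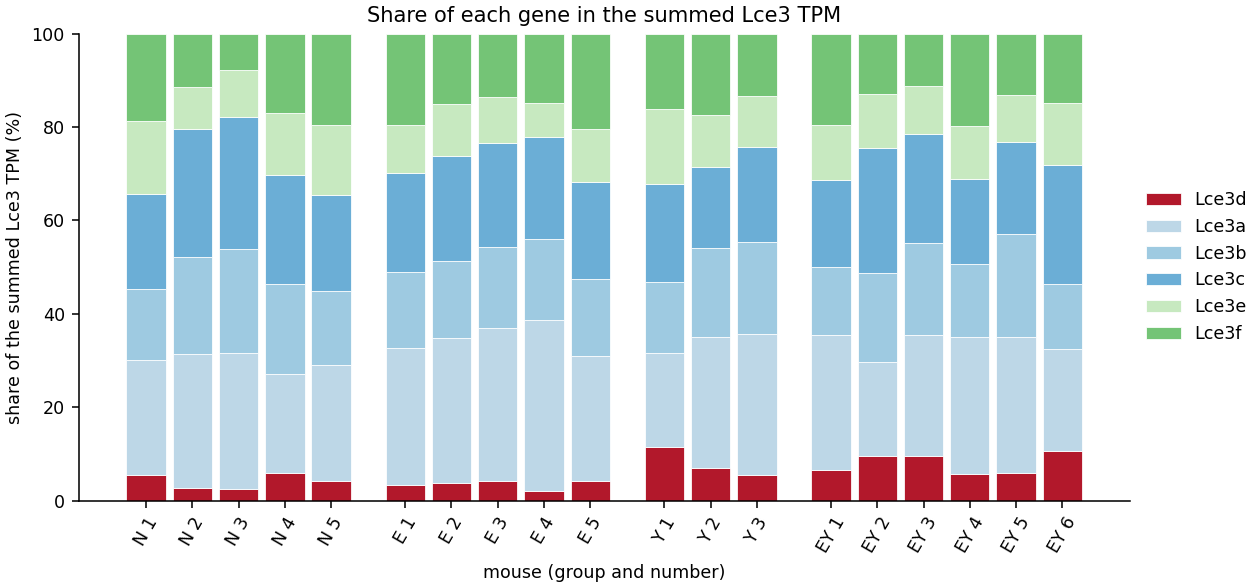
Percent of summed Lce3 TPM held by each Lce3 gene in each of the 19 mice, as stacked bars that add to 100, with Lce3d in red at the bottom. Lce3d holds 2.08% to 5.86% in N and E mice and 5.47% to 11.5% in Y and EY mice.

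The Lce1 genes, the LCE genes of normal cornification, took another course. Summed Lce1 TPM ran from 9257 to 19304 among N mice, 13216 to 18283 among E mice, 3331 to 5334 among Y mice and 113 to 344 in EY mice, so that all Y mice were below all N mice, and all EY mice far below all Y mice. Summed Lce3 over summed Lce1 TPM was 0.770 to 1.13 among N, 0.944 to 1.70 among E, 2.05 to 4.68 among Y and 13.4 to 22.5 among EY mice, and the Y and EY ranges overlapped neither each other nor those of N and E mice. On the log2 scale the summed Lce3 level differed from N by -1.72 in EY, 0.02 in Y and 0.62 in E mice, and the summed Lce1 level by -5.96, -1.66 and 0.21. The Y value for summed Lce3 changed sign, to -0.18 under median-of-ratios scaling, and ran from -0.18 without N mouse 2 to 0.30 without Y mouse 3. The E value for summed Lce1 ran from 0.086 to 0.35 without 1 mouse and was 0.49 with only the 3 N mice. Gene by gene, 14 of 14 Lce1 genes passed as lower in EY against N mice, against 5.71% of all genes, with a median of -6.09. In Y against N mice 9 of 14 passed as lower, against 1.11% of all genes, with a median of -1.61. The count of 9 was 3 with only the 3 N mice that carry both alleles, 4 with only N and Y mice in the fit and 13 by voom. The difference between the families was not tested.

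**Figure D4:**
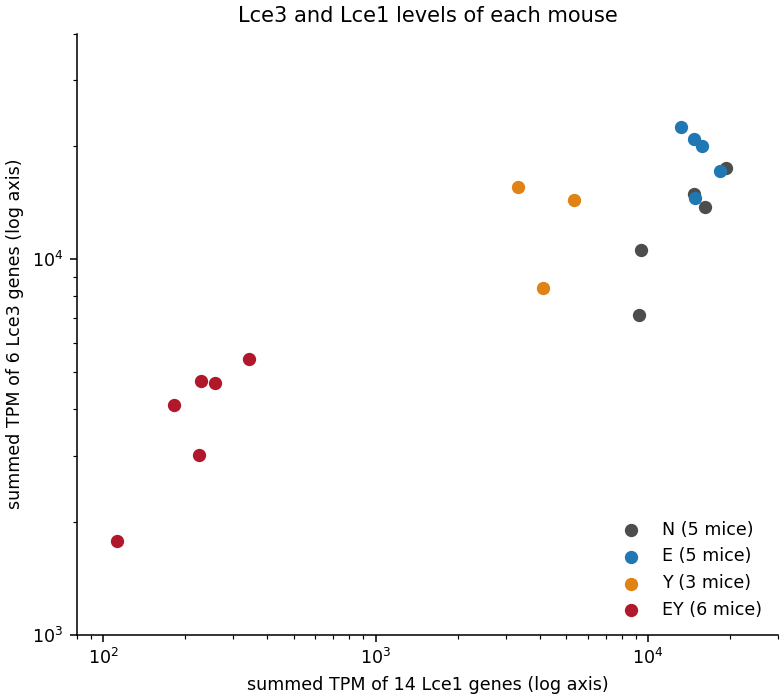
Summed Lce3 TPM against summed Lce1 TPM, both on log axes, 1 point a mouse, coloured by group. N and E mice lie at Lce3 to Lce1 ratios of 0.770 to 1.70, Y mice have 3331 to 5334 Lce1 TPM at Lce3 sums like those of N mice, and EY mice have 113 to 344 Lce1 TPM with 1772 to 5431 Lce3 TPM.

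The genes beside the family ran from large falls to a gene that passed as higher. In genome order on GRCm38.p6 Kprp, Lce1l and 2310050C09Rik come before Lce3a, and Crct1, Lce1m and Tdpoz8 follow Lce3f. The nearest listed gene before the family, 2310050C09Rik, fell by 4.54 in EY against N mice (adjusted p = 1.59e-09), from 838 ± 273 TPM (SD, n = 5) to 36.8 ± 15.7 TPM (n = 6). Crct1, the nearest listed gene after it, was at -0.48 (SE 0.21, adjusted p = 0.0811) and did not pass, with 6212 ± 1663 TPM in N and 4444 ± 1196 TPM in EY mice. Further out Lce1l was at -6.10, Kprp at -3.58 and Lce1m at -2.61, all 3 passing as lower. Tdpoz8 passed as higher, being listed at 0 in all N mice and at 0.847 ± 0.603 TPM in EY mice (SD, n = 6), and it did not pass with a pseudocount of 1 TPM. The 5 Lce3 genes that passed were at -1.84 to -1.64.

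The genes whose pattern over the 19 mice was most like the mean log2 level of the 6 Lce3 genes are given in order, with r and rho. They were Cpa4 (0.936 and 0.911), 2210017I01Rik (0.931 and 0.865), Asprv1 (0.920 and 0.912), Gpsm1 (0.919 and 0.891) and Klk9 (0.915 and 0.809). Next came Klk7 (0.914 and 0.858), Kctd4 (0.910 and 0.884), Gsdma (0.908 and 0.914), Csta1 (0.908 and 0.923) and Ly6g6d (0.907 and 0.826). Asprv1 is a protease that processes filaggrin, Klk7 a protease of desquamation, and Gsdma a pore-forming protein of upper keratinocytes. Genes chosen for this likeness had to be lower in EY mice, so their values there are a description. Log2 fold changes in EY against N mice ran from -4.58 for 2210017I01Rik to -0.87 for Klk9. Asprv1 went from 12563 ± 2718 TPM in N mice (SD, n = 5) to 4148 ± 1799 TPM in EY mice (n = 6), and Klk7 from 179 ± 34.7 to 57.9 ± 32.1 TPM. For the 10 the adjusted p was 0.0799 or more in Y against N mice and 0.0408 or more in E against N mice. Without EY mice 2 and 6, the mice farthest from the median, r of the 10 ran from 0.852 to 0.899.

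With the group means taken off, the 5 genes most like the family were Gm15536 (r 0.863, rho 0.754), Klk9 (0.814 and 0.737), Cpa4 (0.796 and 0.730), Gm10643 (0.789 and 0.774) and Sdr42e1 (0.770 and 0.698). Klk9 and Cpa4 are on both lists. Gm15536 was listed at 0 in N mice 2 and 3, Y mouse 3 and EY mouse 2, which include the mice lowest for summed Lce3 in those groups, and Gm10643 was listed at 0 in N mouse 2 and EY mouse 2. All these correlations share the libraries of the same 19 mice, and those over all mice share the group differences too.

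Over all 22745 genes, the Lce3 genes included, 2858 passed as higher in EY against N mice, 12.6% of all genes, and 1299 as lower, 5.71%. This balance turned round under median-of-ratios scaling, with 1542 higher and 1971 lower, and under quantile normalization, with 1632 and 1912. Of the other LCE-type genes 2 of 5 tested passed as lower, Prr9 at -4.21 and Kprp at -3.58, and all 5 were lower at an unadjusted p under 0.05, against 13.7% of all genes, with a list median of -2.64, while Lce2a, Lce2b, Lce2c and Lce2d are not listed in the table. Of 18 cornified envelope precursors and cross-linkers tested 11 passed as lower and 0 as higher by limma, 0 also by voom and at an unadjusted p under 0.05, against 34.9% of all genes, with a median of -2.30. The largest falls were of the fused S100 proteins hornerin (Hrnr, -5.59), cornulin (Crnn, -4.51) and repetin (Rptn, -3.78). All 6 suprabasal mucosa keratins passed as lower with a median of -3.42, with Krt10 at -5.73, Krt76 at -5.49, Krt1 at -3.61, Krt78 at -3.24 and the keratin pair of the upper mucosa, Krt13 and Krt4, at -1.75 and -1.61. Of the 9 filiform papilla keratins tested 8 passed as lower with a list median of -4.74, among them Krt86 at -6.49 and Krt34 at -5.48, Krt85 is not listed, and 1 rose, Krt90 by 2.60, a gene named after its values were seen.

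The small proline-rich (Sprr) genes, which lie in the same complex and whose proteins are also cross-linked into the envelope, did not all behave alike. Of the 15, 9 passed as higher in EY against N mice, against 12.6% of all genes, led by Sprr2e at 7.40 and Sprr2f at 5.93. The list median was 2.83. By limma and by voom 0 passed as lower, with 1 lower at an unadjusted p under 0.05, against 13.7% of all genes. Without EY mouse 3, 1 passed as lower. In Y against N mice 7 of 15 passed as higher with a median of 2.92, against 3.47% of all genes, and this count was 3 with only the 3 N mice that carry both alleles, 4 with only N and Y mice in the fit and 3 with the mouse number as a block. Sprr2f averaged 8.87 ± 12.6 TPM in N (SD, n = 5), 524 ± 119 in Y (n = 3) and 311 ± 120.0 in EY mice (n = 6), and in Y against N mice it missed the threshold with only the 3 N mice that carry both alleles (adjusted p = 0.0107) and with the mouse number as a block (0.0115). Summed Sprr TPM was 2549 to 9420 among N mice, 3239 to 7279 among E mice, 7907 to 15859.5 among Y mice and 5042 to 9043 among EY mice, with no overlap between E and Y mice and overlap in each other pair of groups.

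Of 20 injury and barrier-repair genes, 8 passed as higher and 3 as lower in EY against N mice, against 12.6% and 5.71% of all genes. The alarmin genes S100a9 and S100a8 rose by 4.80 and 4.75 and the iron-binding lipocalin gene Lcn2 by 4.43, though by voom Lcn2 missed the threshold (adjusted p = 0.0162). Il24 was listed at 0 in all N mice and averaged 27.2 ± 21.4 TPM in EY mice (SD, n = 6). The list median was 0.53, which does not depend on the size of the value for Il24. The 3 lower genes, Defb3 at -3.19, Il36b at -2.48 and Il36a at -1.62, became 6 under median-of-ratios scaling and under quantile normalization, and 5 by voom and without N mouse 1. In Y against N mice 6 of the 20 passed as higher, against 3.47% of all genes, with a median of 0.62. The S100a8 mean was 16.2 ± 18.8 TPM in N (n = 5), 496 ± 146 in Y (n = 3) and 381 ± 219 in EY mice (n = 6).

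Of 6 cytokines known to induce barrier-repair genes that were tested, 1 passed as higher in EY against N mice, against 12.6% of all genes. It was Il17f, listed at 0 in N mice and at 0.182 ± 0.139 TPM in EY mice (SD, n = 6). It did not pass with a pseudocount of 1 TPM and was not tested with a filter at 1 TPM, which leaves it out, and Il22 is not listed. Of 17 terminal differentiation factors 1 rose and 1 fell, against 12.6% and 5.71% of all genes, with a list median of 0.02. Elf3 rose by 2.05, from 17.1 ± 4.29 TPM in N (n = 5) to 70.9 ± 15.8 in EY mice (n = 6), and Maf fell by 2.59, from 35.5 ± 9.12 to 6.25 ± 2.94 TPM. Lower factors were 4 under median-of-ratios scaling and quantile normalization and 2 by voom, without EY mouse 2 or without EY mouse 6, and higher factors were 2 without EY mouse 3. With no limit on the fold change 5 were lower and 2 higher, against 7.97% and 23.9% of all genes, and at an unadjusted p under 0.05 there were 6 lower and 4 higher, against 13.7% and 34.9%. In E against N mice 0 of the Sprr genes, injury genes and differentiation factors passed by limma or by voom, and at an unadjusted p under 0.05 the higher genes were 3 of 15, 2 of 20 and 5 of 17, against 11.2% of all genes, with 1 Sprr gene lower, against 3.54%.

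**Figure D5:**
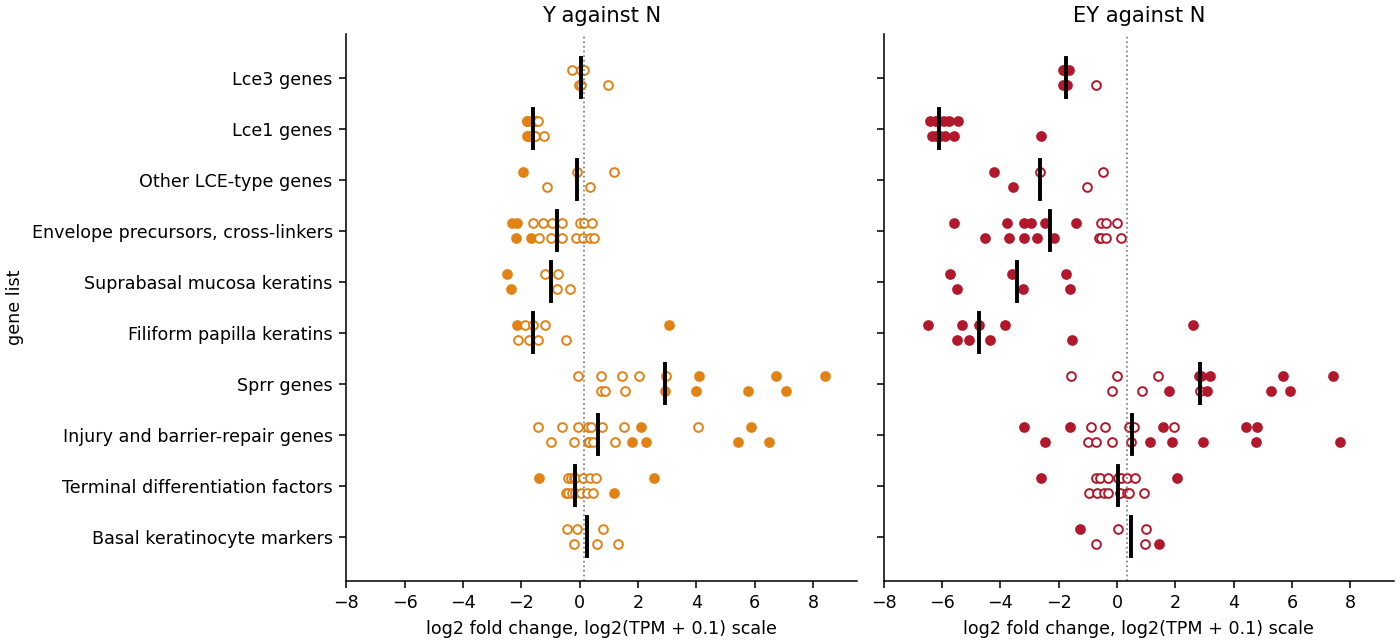
Log2 fold change of each gene by list in Y against N mice and EY against N mice; filled points passed the test, black bars are list medians and the dotted line is the median of all genes (0.13 and 0.33). In EY against N mice the Lce3 median of -1.77 lies between the Lce1 median of -6.09 and the Sprr median of 2.83.

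Some markers of cell types in the samples passed the test as well, and the part of cell types in the Lce3 results was not tested. Summed suprabasal keratin TPM, with Krt13 the most abundant, was 67582 to 129794 among N, 60505 to 109155 among E, 41399 to 74549 among Y and 26267 to 38838.5 among EY mice, so EY mice were below all others for these keratins as for summed Lce3. The group means fell from 104934 ± 22923 TPM in N mice (SD, n = 5) to 30044 ± 4467 in EY mice (n = 6) for the keratins, and from 12789 ± 4021 to 3954 ± 1343 TPM for summed Lce3. In Y mice (n = 3) the means were 60157 ± 17000 TPM for the keratins and 12799 ± 3856 TPM for summed Lce3. Of 6 basal keratinocyte markers 1 rose, Krt14 by 1.43, and 1 fell, Krt15, against 12.6% and 5.71% of all genes. The list median was 0.48. Higher basal markers were 3 without N mouse 1, EY mouse 3 or EY mouse 5 and 2 without N mouse 2 or EY mouse 4, and lower ones were 2 under median-of-ratios scaling and quantile normalization and 0 with the mouse number as a block. Summed basal marker TPM, with Krt14 the most abundant, was 9256 to 14615 among N, 8967 to 15467 among E, 17098 to 30999 among Y and 16010.3 to 32181 among EY mice. All Y and EY mice were above all N and E mice in it.

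Of 10 skeletal muscle markers 0 passed in EY against N mice by limma and by voom, 1 was higher at an unadjusted p under 0.05, against 34.9% of all genes, and 1 passed without Y mouse 2 or without EY mouse 4. All 10 were above 0, with a list median of 1.77. Their summed TPM was 68.5, 255, 12.0, 42.7 and 52.4 in N mice 1 to 5, 40.0, 30.3, 34.8, 11.7 and 143 in E mice 1 to 5 and 7.73, 150.0 and 17.7 in Y mice 1 to 3. In EY mice it was 38.0 at the lowest, 182 at the median and 1381 in mouse 3, with Acta1 the most abundant. Of 6 fibroblast markers 1 passed as lower, against 5.71% of all genes. It was Dcn, which fell by 2.36, while the other 5 were above 0, and the list median was 0.39. Summed fibroblast marker TPM was 61.5 to 293 among N, 57.2 to 104 among E, 23.8 to 44.1 among Y and 24.2 to 153 among EY mice. The 3 endothelial markers tested, with summed TPM of at most 3.39 in any mouse, gave 0 by limma, by voom and at an unadjusted p under 0.05, with a median of 0.64. Of 8 immune markers 1 passed as higher, against 12.6% of all genes. It was Ly6g, listed at 0 in N, E and Y mice. It did not pass with a pseudocount of 1 TPM, and 2 passed without N mouse 1, Y mouse 2 or EY mouse 6. Of the 8, 7 were above 0 and 3 were higher at an unadjusted p under 0.05, against the same 34.9%. Summed immune marker TPM, with Lyz2 the most abundant, was 86.6 to 691 among N, 30.2 to 499 among E, 44.8 to 87.3 among Y and 169 to 328 among EY mice.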

How the data were processed

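Gene expression in whole tongue epithelium of 19 mice was read from a deposited table of TPM, 1 column a mouse, each adding to 1000000 over 24689 gene symbols. Per the labels and methods, the authors aligned paired-end reads with STAR 2.7.9 to GRCm39, sorted them with SAMtools 1.7, counted them with HTSeq 0.13.5 and tested counts with DESeq2 1.34.0. The step from counts to TPM, the gene lengths and the HTSeq settings are not stated. For its gene set analysis the study describes a separate route to TPM, through Kallisto. Because the table holds TPM, limma 3.58.1 (R 4.3.3) was used on log2(TPM + 0.1), with 1 mean for each of 4 groups and an empirical Bayes trend. Tests covered 22745 genes, those that reached 0.1 TPM in 3 mice or more, of 24680 above 0 in any mouse. P-values are two-sided and adjusted by Benjamini-Hochberg over all genes tested, and a gene passed at an adjusted p under 0.01 with an absolute log2 fold change above 1, the study's limits. Whole reads were recovered per gene from the steps between TPM values (8269674 to 11007304 a mouse, and at least 335 for each Lce3 gene in a mouse), and the method was tested on simulated data.

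The members and lists were chosen with earlier results of these data known. Genes named are the 6 members, their neighbours in genome order, the 10 and 5 genes most correlated with the family over all mice and over deviations from group means, and, from each list, at most 4 genes that passed with the largest change in EY against N mice beside defining markers. Also named are the injury genes that passed as lower, Krt90 and the most abundant gene of some lists. The lists are Lce1 genes, other LCE-type genes, cornified envelope precursors and cross-linkers, Sprr genes, injury and barrier-repair genes, inducing cytokines, terminal differentiation factors, suprabasal mucosa keratins, filiform papilla keratins, and markers of basal keratinocytes, skeletal muscle, fibroblasts, endothelium and immune cells. They are described by counts and medians, with no test of a list.

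Alternatives were pseudocounts of 1 and 0.01 TPM, a filter at 1 TPM and no filter, median-of-ratios and quantile scaling, only the 3 N mice with both Krt14-CreERT and LSL-rtTA, a block for the mouse number, a fit of only the groups compared, voom on recovered reads, an adjusted p under 0.05, no limit on fold change, and each mouse left out in turn. Promoters, gene order and transcripts come from RefSeq and GENCODE M21 on GRCm38, an older build than the authors' and used for no expression value. Python 3.11.15 with numpy 2.4.6, pandas 2.3.3, matplotlib 3.10.9 and Biopython 1.88 did the rest.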

Additional observations from a re-analysis of the deposited data

Results flagged for a closer look

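Among 63 groups of at least 4 mice, 4 held 1 mouse whose gap to the nearest other mouse took up an unusually large share of the group's whole range on the log2 scale. Chance gives about 1 in 20 such groups, here 3.15. For Lce3e in EY mice the share was 0.657, mouse 2 having 204.4 TPM and the next mouse 395.3. For summed terminal differentiation factors in E mice it was 0.754, mouse 3 having 2183 TPM and the next 1936. For summed suprabasal keratins in EY mice it was 0.706, mouse 3 having 38838.5 TPM and the next 29462. For summed filiform papilla keratins in N mice it was 0.781, mouse 3 having 4317 TPM and the next 9433.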

How the results depend on the processing

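In EY against N mice all 6 Lce3 genes stayed below 0 in every alternative, and 5 passed except with only the 3 N mice that carry both alleles, where 3 passed, and with only the groups compared, where 4 passed. Leaving out 1 mouse gave 4 to 5. In EY against E mice 5 passed throughout, and in Y against N, E against N and Y against E mice 0 passed throughout. In EY against Y mice the count of 3 became 0 with only the groups compared, 2 with only the 3 N mice and with the mouse number as a block, 4 with a filter at 1 TPM and by voom, 5 at an adjusted p under 0.05, and 0 to 4 without 1 mouse. The interaction count of 0 became 1 with a pseudocount of 0.01 TPM, 1 with a filter at 1 TPM, 3 by voom, 3 at an adjusted p under 0.05 and 0 to 3 without 1 mouse. It needs all 4 groups, so it could not be fitted with only the groups compared.

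Signs that changed were all of values that did not pass, and the cause was not tested. In Y against N mice Lce3a, at 0.03, was -0.17 by median of ratios, -0.072 by voom and -0.15 to 0.19 without 1 mouse. Lce3b, at -0.02, was 0.15 with only the 3 N mice, 0.076 with the mouse number as a block and -0.18 to 0.19 without 1 mouse. Lce3e, at 0.04, was -0.16 by median of ratios, -0.040 by quantile scaling, -0.069 by voom and -0.30 to 0.40 without 1 mouse. Lce3f, at 0.16, was -0.040 by median of ratios and -0.11 to 0.55 without 1 mouse. Without 1 mouse Lce3e ran from -0.0016 to 0.51 in E against N mice and from -0.60 to 0.10 in Y against E mice. In EY against N mice Gm10643, at 0.21, was -0.11 by median of ratios, -0.086 by quantile scaling, -0.022 by voom and -0.55 to 0.86 without 1 mouse, and Gm15536, at 1.05, was -0.078 by voom and -0.077 to 2.16 without 1 mouse. The log2 of summed Lce3 TPM, Y minus N, was not tested. At 0.02, it was -0.18 by median of ratios, 0.25 with only the 3 N mice and -0.18 to 0.30 without 1 mouse.

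Over 24 pairs of mice with the same number, deviations from group means correlated across genes at -0.04 to 0.08. The labels do not say that mice of the same number belong together, so the block for the mouse number stands for no known pairing. Y has 3 mice, which limits every comparison with it. The fewest recovered reads of a member in a mouse were 335, for Lce3d, and the part of depth was not tested. Gene lengths behind TPM and the counting of shared reads are unknown.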
